A study of Homo sapiens with 8 samples.

Results

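The MYC network is a set of basic helix-loop-helix leucine zipper transcription factors that share MAX as a partner for binding DNA. It was followed here in leukemia cells of the T lineage (T-ALL, T-cell acute lymphoblastic leukemia) in which the transcriptional cofactor LDB1 had been knocked down. The members were taken by symbol from a list: 2 activators (MYC and MYCN), the shared partner MAX, and 5 repressors (MXD1, MXD3, MXD4, MXI1 and MNT). These 8 genes were all found among the 64252 genes of the count tables, and all 8 passed the filter on low counts in each cell line. 6T-CEM, a thioguanine-resistant line of the CCRF-CEM family, and J.gamma1, a Jurkat derivative, are both human T-ALL lines. Each line carried either a control shRNA (sh-NC, called shControl in the sample labels) or an shRNA against LDB1 (sh-LDB1), delivered by lentivirus and selected with puromycin, and in the study's general protocol cells were collected 3 days after selection. There were 2 libraries in each of the 4 groups and 8 libraries in all, and a cell line is a limited model of the disease. Nothing states that the libraries of a group came from separate cultures, so the p-values below measure the spread between these libraries only, which may be technical.

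MYC and MYCN bind E-box DNA as dimers with MAX, recruit histone acetyltransferases and drive ribosome production, nucleotide synthesis and entry into the cell cycle. MXD1, MXD3, MXD4, MXI1 and MNT compete for the same MAX and the same E-boxes but carry SIN3 and histone deacetylases to them. In T-ALL, MYC is a well known target of NOTCH1 and a driver of growth, while MYCN is better known from neuroblastoma. LDB1 is a scaffold that joins LIM-domain proteins and DNA-binding factors and helps enhancers meet their promoters.

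Each library held from 26160492 to 30604977 counts. LDB1 itself, the check of the labels, stood at 107 and 111 CPM (read counts scaled to a common library size by the TMM method) in 6T-CEM controls and at 37.0 and 35.0 CPM after knockdown. In J.gamma1 it stood at 60.1 and 58.8 CPM in controls and at 33.2 and 30.7 CPM after knockdown. LDB1 mRNA was thus lowered to 33.0% of its control in 6T-CEM (edgeR adjusted p = 1.02e-09) and to 53.8% in J.gamma1 (adjusted p = 3.68e-06). The summed level of 7 T-lineage markers (CD3D, CD3E, CD2, CD5, CD7, LCK and PTPRC) was 1581 to 1658 CPM in 6T-CEM sh-NC, 2074 to 2081 in 6T-CEM sh-LDB1, 2069 to 2084 in J.gamma1 sh-NC and 2681 to 2698 in J.gamma1 sh-LDB1. All 7 were above 0 in every group, CD3E, CD7 and PTPRC rose in both lines, CD3D rose in 6T-CEM and fell in J.gamma1, CD5 fell in 6T-CEM and LCK fell in J.gamma1. The median change of the 7 was 0.29 on the log2 scale in 6T-CEM and -0.05 in J.gamma1, and the part of this shift in the results below was not tested. Myeloid markers summed to at most 2.71 CPM and epithelial or packaging-cell markers to at most 2.46 CPM in any library. B-lineage markers summed to between 26.3 and 75.7 CPM, most of it CD79A.

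The E-box is the DNA element on which activators and repressors of the network compete, so the members whose own promoter window holds the canonical form CACGTG are shown. RefSeq windows on GRCh38, from 250 bases before to 50 bases after the start site, were read for 7 members (10 windows, since MAX has 2 and MXI1 has 3); the window of MYC was not read. CACGTG, which reads the same on both strands, was found once in the window of MXD4 and once in that of MNT and in no other window, and 7.26% of 35116 promoter windows of that length hold it. The motif is in capitals, and each stretch runs 5′ to 3′ on the strand of its gene (both on the minus strand, chr4:2262300-2262359 and chr17:2401221-2401280).
MXD4: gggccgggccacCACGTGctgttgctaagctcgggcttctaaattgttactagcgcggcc
MNT: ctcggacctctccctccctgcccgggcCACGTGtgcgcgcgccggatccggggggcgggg
The first base of the motif lies 238 bases before the start site in MXD4 and 193 bases before it in MNT. A match is a description of the letters and not evidence of binding. MNT is the repressor that rose in both lines, and MXD4 passed the test in neither.

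With sh-LDB1, MYC and MXD1 were called in opposite directions in the 2 lines, MYCN fell in both and MNT rose in both. In 6T-CEM, 6 of the 8 members changed at an adjusted p under 0.05 in edgeR's quasi-likelihood test: both activators and MAX fell, and the repressors MXD1, MXI1 and MNT rose. Among the 16059 genes tested in that line 31.3% were called, 15.1% higher and 16.2% lower. These 5023 genes became 3234 without the first sh-NC library and 3339 without the second, and the members called became 4 without the first (MXD1 and MNT were lost) and 5 without the second (MXD1 was lost). In J.gamma1, 5 of the 8 members changed: MYC and MNT rose, and MYCN, MXD1 and MXD3 fell. There 51.5% of 17215 genes were called, 25.0% higher and 26.5% lower, so the count of 5 in 8 was close to the background of that line. The median of all genes was 0.00 on the log2 scale in each line.

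**Figure D1:**
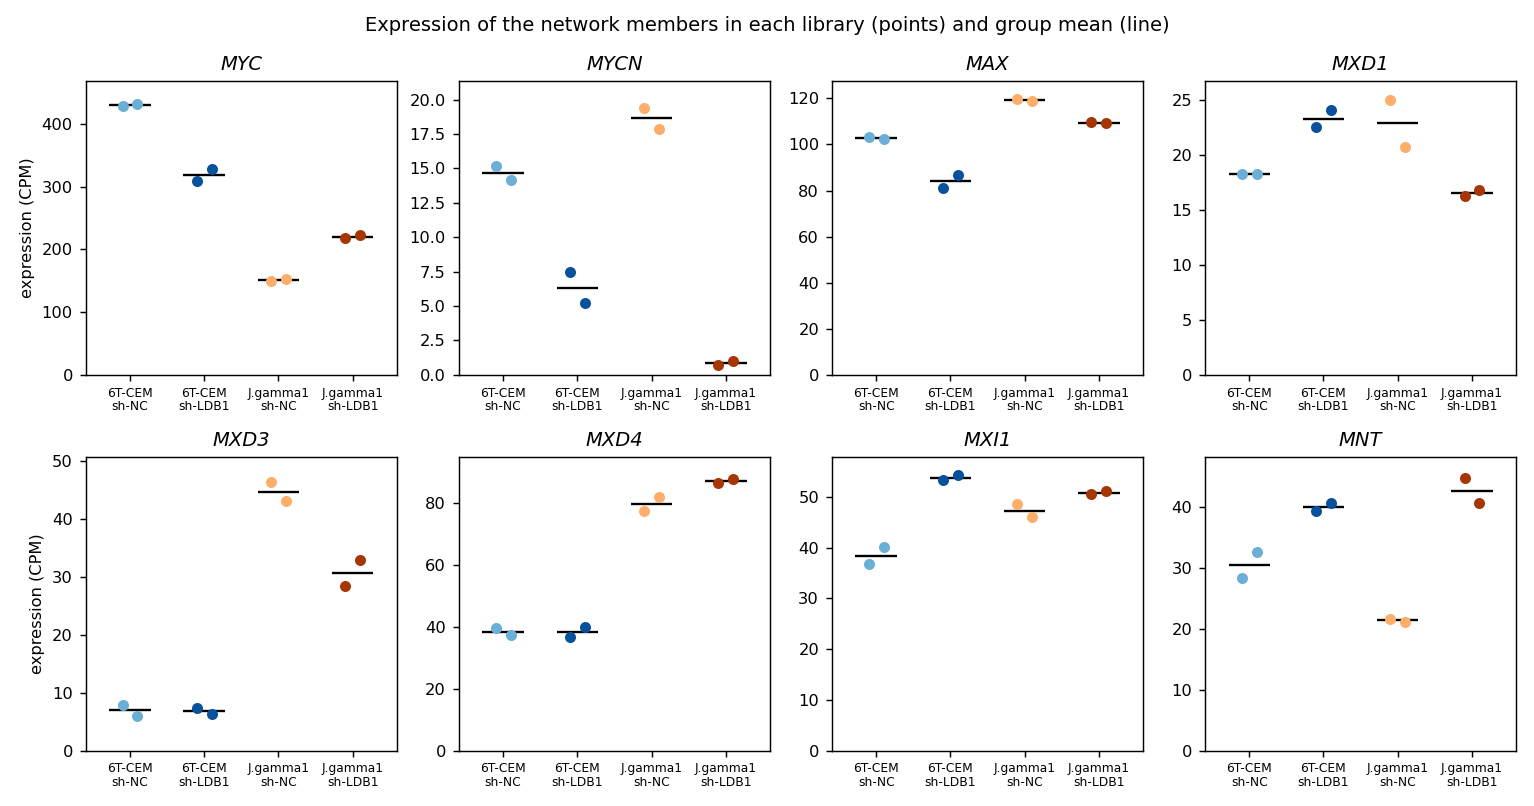
Expression of the 8 members in every library, in CPM on a linear axis from 0. Points are libraries, the black line is the mean of the 2 libraries of a group, and colours mark the 4 groups. MYC goes down with sh-LDB1 in 6T-CEM and up in J.gamma1, while MYCN goes down in both lines and reaches 0.714 and 1.02 CPM in J.gamma1.

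MYC (chr8:127735434-127742951, plus strand, GRCh38) was the most abundant member in every group. The 6T-CEM sh-NC libraries had 428 and 432 CPM and the sh-LDB1 libraries 309 and 328 CPM. The J.gamma1 sh-NC libraries had 149.9 and 153 CPM and the sh-LDB1 libraries 218 and 222 CPM. The groups of a line did not overlap, and the direction was opposite in the 2 lines. MYC fell by 0.43 ± 0.053 (SE) on the log2 scale in 6T-CEM, to 74.1% of its control (adjusted p = 2.56e-05), and rose by 0.54 ± 0.046 in J.gamma1, to 145% (adjusted p = 3.81e-06). Knockdown thus narrowed the distance between the lines: MYC in 6T-CEM was 2.84-fold above J.gamma1 with sh-NC, and the means with sh-LDB1 were 319 and 220.1 CPM.

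MYCN (chr2:15940550-15947007, plus strand) is the paralog of MYC that is normally expressed in the developing nervous system and in early progenitors. In 6T-CEM 394 and 382 counts of the controls became 217 and 149 counts after knockdown, or 15.2, 14.2, 7.44 and 5.21 CPM. In J.gamma1 616 and 564 counts became 20 and 30 counts, or 19.4, 17.9, 0.714 and 1.02 CPM. All 4 knockdown libraries were below all 4 control libraries. MYCN fell by 1.21 ± 0.178 on the log2 scale in 6T-CEM, to 43.1% of control (adjusted p = 0.000127), and fell by 4.41 ± 0.196 in J.gamma1, to 4.65% of control or 21.5-fold lower (adjusted p = 3.35e-08). It was the member with the greatest change in size in each line. RNA of a whole culture does not separate fewer cells with a transcript from less transcript per cell.

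MAX (chr14:65006174-65102695, minus strand), the shared partner, had the smallest change of the 6 members called in 6T-CEM. The 6T-CEM libraries had 103 and 102 CPM with sh-NC and 81.0 and 87.0 CPM in the knockdown libraries. In J.gamma1 the values were 119.5 and 118.9 CPM in the controls and 109.7 and 109.2 CPM after knockdown. Every knockdown library lay below the controls of its line, with a much smaller step in J.gamma1. MAX fell by 0.29 ± 0.066 on the log2 scale in 6T-CEM (adjusted p = 0.00381), and its difference of -0.12 ± 0.050 in J.gamma1 did not pass (adjusted p = 0.0712). MAX shares 13.1% of its exon bases with FNTB on the opposite strand, and whether the counting used the strand is not given in the sources used here. FNTB itself had an adjusted p of 0.237 in 6T-CEM and rose by 0.35 on the log2 scale in J.gamma1 (adjusted p = 0.0282).

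The 5 repressors did not move as a block. MNT (chr17:2384073-2401104, minus strand), the broadly expressed repressor of the network, was the only one of them to rise in both lines. The 6T-CEM libraries had 28.3 and 32.5 CPM with sh-NC and 39.4 and 40.7 CPM in the knockdown libraries. J.gamma1 had 21.7 and 21.1 CPM in the controls and 44.8 and 40.6 CPM after knockdown. No knockdown library overlapped a control of its line, and the J.gamma1 mean doubled to 199% of control. The change was 0.40 ± 0.093 on the log2 scale in 6T-CEM (adjusted p = 0.00411) and 1.00 ± 0.084 in J.gamma1 (adjusted p = 3.40e-06). Without the first 6T-CEM sh-NC library the 6T-CEM change was 0.31 with an adjusted p of 0.0616, against 0.00242 to 0.0616 over the 11 alternatives.

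MXD1 (chr2:69897688-69942945, plus strand), known for its induction during terminal differentiation, moved in opposite directions. Its 6T-CEM libraries had 18.3 and 18.3 CPM with sh-NC and 22.5 and 24.1 CPM in the knockdown libraries. In J.gamma1 they had 25.0 and 20.8 CPM in the controls and 16.3 and 16.8 CPM after knockdown. Neither pair of groups overlapped, with the widest gap between libraries in the J.gamma1 controls. MXD1 rose by 0.35 ± 0.109 on the log2 scale in 6T-CEM (adjusted p = 0.0230) and fell by 0.46 ± 0.113 in J.gamma1 (adjusted p = 0.00573). The rise in 6T-CEM passed in only 6 of 11 alternatives (adjusted p from 0.0146 to 0.141) and was not called by DESeq2 (adjusted p = 0.0789). The fall in J.gamma1 passed in 10 of 11 and was lost without the first sh-NC library (-0.32, adjusted p = 0.0698, against 0.000864 to 0.0698 over the alternatives).

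MXI1 (chr10:110207605-110287365, plus strand), also called MXD2, rose in 6T-CEM. The sh-NC libraries had 36.7 and 40.1 CPM and the sh-LDB1 libraries 53.3 and 54.2 CPM there. In J.gamma1 the sh-NC libraries had 48.6 and 46.0 CPM and the sh-LDB1 libraries 50.6 and 51.1 CPM. The 6T-CEM groups were far apart and the J.gamma1 groups nearly touched. The change was 0.49 ± 0.081 on the log2 scale in 6T-CEM (adjusted p = 0.000317) and 0.11 in J.gamma1, which did not pass (adjusted p = 0.218).

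MXD3 (chr5:177301461-177312757, minus strand), the family member associated with S phase and proliferating cells, separated the lines more than the knockdown did. 6T-CEM had 7.96 and 6.01 CPM with sh-NC and 7.37 and 6.33 CPM in the knockdown libraries, and these groups overlapped (adjusted p = 0.943). J.gamma1 had 46.4 and 43.2 CPM in the controls and 28.5 and 33.0 CPM after knockdown. There MXD3 fell by 0.54 ± 0.089 on the log2 scale, to 68.7% of control (adjusted p = 0.000492). MXD3 shares 24.2% of its exon bases with PRELID1 on the opposite strand and 19.5% with RAB24 on the same strand, so its counts are uncertain. In J.gamma1 PRELID1 rose by 0.22 on the log2 scale and RAB24 had -0.19 with an adjusted p of 0.169.

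MXD4 (chr4:2247432-2262109, minus strand) is a further MAD protein that pairs with MAX. In 6T-CEM it had 39.6 and 37.3 CPM with sh-NC and 36.7 and 39.8 CPM in the knockdown libraries, and the groups overlapped (adjusted p = 0.992). In J.gamma1 it had 77.5 and 81.9 CPM in the controls and 86.4 and 87.8 CPM after knockdown. The difference of 0.13 on the log2 scale did not pass (adjusted p = 0.0687), though it did in 3 of 11 alternatives (adjusted p from 0.0216 to 0.344).

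**Figure D2:**
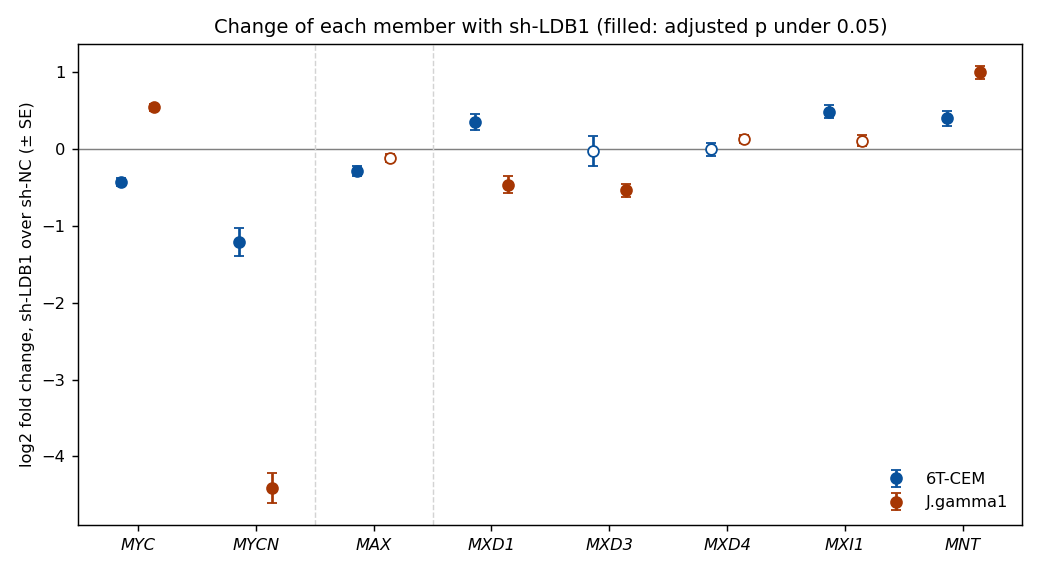
Log2 fold change of each member, sh-LDB1 over sh-NC, with its standard error, for 6T-CEM (blue) and J.gamma1 (brown). Filled points have an adjusted p under 0.05, and dashed lines separate the activators, MAX and the repressors. The activators MYC and MYCN are at -0.43 and -1.21 in 6T-CEM and at 0.54 and -4.41 in J.gamma1, while MNT is above 0 in both lines.

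Levels of different genes were compared only per length, as RPKM (CPM divided by the kilobases of annotated exon). In 6T-CEM sh-NC the order was MYC at 70.3, MAX at 16.4, MXI1 at 6.50, MXD4 at 5.59, MYCN at 5.32, MNT at 3.49, MXD1 at 2.88 and MXD3 at 1.47 RPKM, and MXD4 and MYCN overlapped between libraries. In J.gamma1 sh-NC it was MYC at 24.8, MAX at 19.1, MXD4 at 11.6, MXD3 at 9.44, MXI1 at 8.002, MYCN at 6.76, MXD1 at 3.61 and MNT at 2.46 RPKM, and no neighbours in that order overlapped. MYC mRNA was therefore several times the MAX mRNA in 6T-CEM and only slightly above it in J.gamma1. After knockdown MYCN was the lowest member of J.gamma1, at 0.314 ± 0.078 RPKM (SD, n = 2). The orders rest on annotated exon length, a choice that overlap between libraries does not measure. The longest transcript has 2279 bases against 4743 annotated exon bases for MXD3, and 4228 against 6873 for MXD4. Close neighbours such as these are therefore not securely ordered, and MXD3 also shares exon bases with PRELID1 and RAB24.

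The balance of the network was summarised in each library as the summed RPKM of the 5 repressors over that of the 2 activators, with no test. In 6T-CEM the ratio was 0.262 and 0.265 in controls and 0.450 and 0.446 after knockdown. In J.gamma1 it was 1.13 and 1.09 in controls and 0.969 and 0.972 after knockdown. With all 5 repressors in the sum, repressor mRNA was thus well below activator mRNA in 6T-CEM and about level with it in J.gamma1. On this measure the 2 lines moved toward each other. The ratio was 1.70-fold higher with sh-LDB1 in 6T-CEM and 0.873-fold its control in J.gamma1, or 0.77 and -0.20 on the log2 scale, with an SD between libraries of 0.011 and 0.024. Without MNT, whose mRNA rose in J.gamma1, the J.gamma1 value was -0.31. MXD3, whose counts are uncertain, went from a mean of 9.44 RPKM in J.gamma1 controls to 6.48 RPKM after knockdown. The ratio without MXD3 was not computed, so the part of MXD3 in the level and the small fall of the J.gamma1 ratio was not tested. MYCN made up 7.29% and 6.78% of the summed activator RPKM in 6T-CEM sh-NC, 5.06% and 3.40% in 6T-CEM sh-LDB1, 22.3% and 20.6% in J.gamma1 sh-NC and 0.721% and 1.01% in J.gamma1 sh-LDB1. In J.gamma1 a mixed pool of MYC and MYCN mRNA thus became nearly pure MYC.

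**Figure D3:**
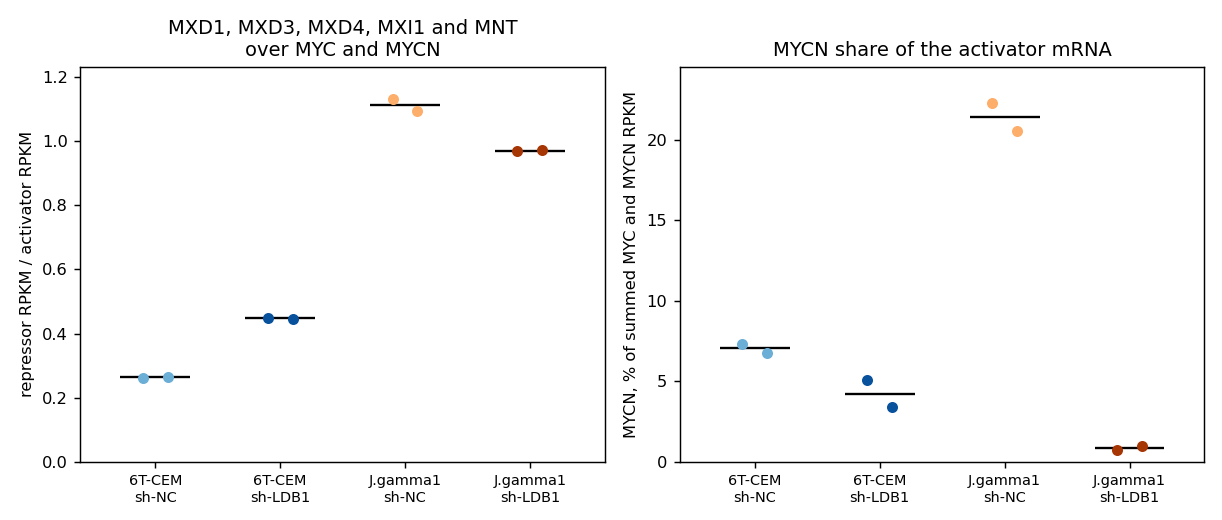
Left, summed RPKM of the 5 repressors over that of MYC and MYCN in each library. Right, MYCN as a percentage of the summed MYC and MYCN RPKM. Points are libraries and lines are group means on axes from 0. The ratio lies between 0.262 and 0.450 in the 4 6T-CEM libraries and between 0.969 and 1.13 in the 4 J.gamma1 libraries.

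The interaction test, which asks whether the change with sh-LDB1 differs between the lines, was passed by 5 of the 8 members, against 24.4% of 18552 genes tested (12.0% with the higher change in J.gamma1 and 12.4% with the lower). MYC had a change 0.97 ± 0.063 higher on the log2 scale in J.gamma1 than in 6T-CEM (adjusted p = 1.49e-06) and MNT one that was 0.60 ± 0.126 higher (adjusted p = 0.00438). For MYCN the difference was -3.20 ± 0.298 (adjusted p = 1.72e-05), for MXD1 -0.82 ± 0.158 (adjusted p = 0.00260) and for MXI1 -0.38 ± 0.09998 (adjusted p = 0.0154). The MXI1 difference was lost without the first sh-NC library of either line (adjusted p = 0.0722 and 0.0607, against 0.0141 to 0.0722 over 14 alternatives). MAX, MXD3 and MXD4 did not pass, with differences of 0.17, -0.51 and 0.13. The MXD3 difference passed in 1 of 14 alternatives, without the first 6T-CEM sh-NC library (-0.72, adjusted p = 0.0235, against 0.0235 to 0.286 over the alternatives). LDB1 was lowered more in 6T-CEM than in J.gamma1, and the part of that difference in these values was not tested.

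With sh-NC the lines already differed in 7 of the 8 members, against 65.7% of all genes tested (34.6% higher and 31.1% lower in J.gamma1). MYC was 2.84-fold and MNT 1.42-fold lower in J.gamma1 (adjusted p = 7.38e-11 and 0.000343). MXD3 was 6.41-fold and MXD4 2.07-fold higher in J.gamma1 (adjusted p = 7.87e-09 and 4.55e-08). Smaller differences in the same direction were seen for MXI1 at 1.23-fold, MXD1 at 1.25-fold and MAX at 1.16-fold, of which that of MXD1 was lost in 3 of 14 alternatives. Of the genes that share exon bases with MXD3, RAB24 was 2.49-fold higher in J.gamma1 (edgeR adjusted p = 1.02e-05). PRELID1 was 1.24-fold lower there (edgeR adjusted p = 0.000834). The part of shared reads in the MXD3 difference was not tested. MYCN differed by 0.35 ± 0.178 on the log2 scale and did not pass (adjusted p = 0.106). Each line was counted in a table of its own, so cell line and processing of the tables cannot be told apart in these values.

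Around the core stand other factors of the extended network, a list of 7 genes of which 5 were tested in 6T-CEM (2 rose, 0 fell) and 6 in J.gamma1 (1 rose, 1 fell). Over all genes 31.3% (6T-CEM) and 51.5% (J.gamma1) were called, so the 2 calls in J.gamma1 were below the background. The median changes of these were 0.12 and -0.01. MGA, a large MAX-binding repressor, rose in both lines, by 0.20 ± 0.063 on the log2 scale in 6T-CEM and 0.30 ± 0.075 in J.gamma1. MLX, the MAX-like partner of the glucose sensors, rose by 0.19 in 6T-CEM (adjusted p = 0.0333) and had 0.11 in J.gamma1 (adjusted p = 0.102). TCFL5, a related helix-loop-helix factor, stood at 32.2 and 30.96 CPM in J.gamma1 sh-NC and fell to 19.0 and 19.2 CPM, a log2 change of -0.72 (adjusted p = 4.29e-05), with -0.01 in 6T-CEM. The glucose sensor MLXIP (MondoA) had 0.07 and -0.15, and ZBTB17 (MIZ1), through which MYC represses genes, had 0.12 and -0.12, none of them past the test. MYCL had 3 and 3 counts in the 6T-CEM controls against 18 and 4 after knockdown, was not tested in that line, and had 6.02 to 10.04 CPM in J.gamma1 with overlapping groups. MLXIPL (ChREBP) was at 0 counts in 7 of the 8 libraries.

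A list of 60 genes known to be activated by MYC had more falls than rises in 6T-CEM and more rises than falls in J.gamma1. In 6T-CEM, 29 of 59 tested fell, 2 rose and 28 did not pass, with a median of -0.15 on the log2 scale, where 16.2% of all genes fell. The 31 calls became 18 without the second sh-NC library and 20 without the first sh-LDB1 library. In J.gamma1, 47 of 60 rose, 7 fell and 6 did not pass, with a median of 0.56, where 25.0% of all genes rose. The interaction test was passed by 49 of 60, against 24.4% of all genes tested. The higher change was in J.gamma1 for 45 of 60, against 12.0% of all genes. Between the sh-NC groups 58 of 60 were called and 55 were lower in J.gamma1, with a median of -1.03. Over all genes 65.7% were called there and 31.1% were lower in J.gamma1. The medians over all genes tested were 0.00, -0.00, -0.01 and 0.05. These comparisons share control libraries and are not independent of each other. The list was also chosen with earlier results of these data known, so the shares over all genes are set beside it as a description only.

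**Figure D4:**
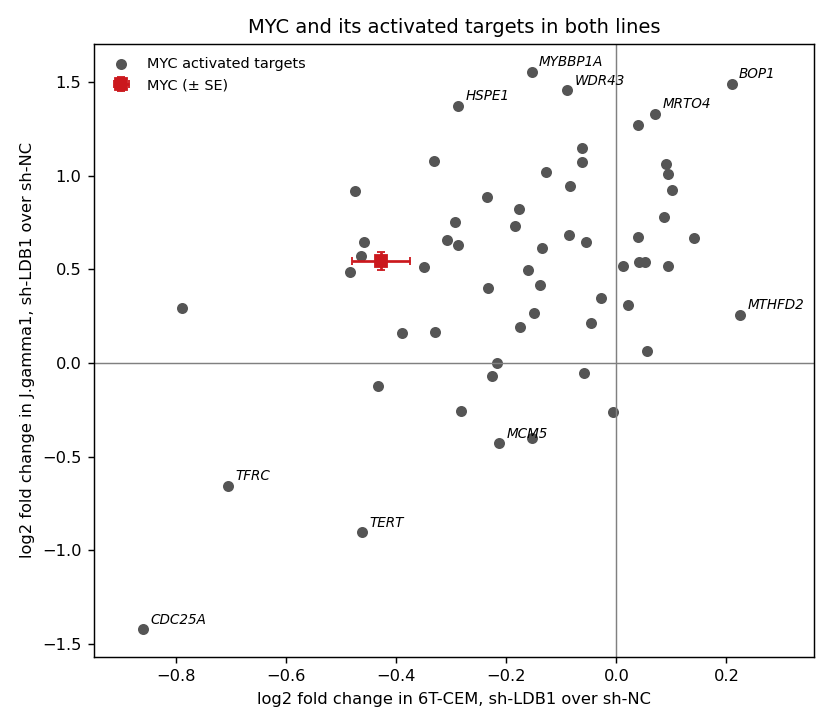
Log2 fold change with sh-LDB1 of 59 MYC activated targets (grey) and of MYC (red square, with standard errors) in 6T-CEM (horizontal axis) and J.gamma1 (vertical axis). Of the 59 genes, 32 lie below 0 in 6T-CEM and above 0 in J.gamma1, the quadrant of MYC itself, 16 lie above 0 in both, 11 below 0 in both and 0 in the remaining quadrant. These counts go by sign only, and 28 of the 59 did not pass the test in 6T-CEM. The same split over all genes was not counted, so the quadrants have no background here.

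The largest rises of that list in J.gamma1, named after their values were seen, were those of the ribosome production genes MYBBP1A, BOP1 and WDR43 and of the mitochondrial chaperonin HSPE1. MYBBP1A had 31.3 and 30.8 CPM in J.gamma1 sh-NC and 88.8 and 92.9 CPM with sh-LDB1, a log2 change of 1.55 (adjusted p = 2.59e-08). In 6T-CEM it stood at 125 and 143 CPM with sh-NC and at 120.3 and 120.5 CPM in the knockdown libraries, which did not pass (-0.15, adjusted p = 0.110). BOP1 rose in both lines, by 1.49 in J.gamma1 and 0.21 in 6T-CEM. WDR43 rose by 1.46 in J.gamma1 and had -0.09 in 6T-CEM. HSPE1 rose by 1.37 in J.gamma1 and fell by 0.29 in 6T-CEM. MTHFD2, a mitochondrial folate enzyme, rose by 0.23 and 0.26.

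A smaller part of the MYC activated list fell in both lines and so went against MYC in J.gamma1. CDC25A, the phosphatase that opens S phase, fell from 148 and 152 CPM to 79.1 and 85.8 CPM in 6T-CEM and from 133 and 140.2 CPM to 52.1 and 49.5 CPM in J.gamma1, or by 0.86 and 1.42 on the log2 scale (adjusted p = 1.74e-07 and 1.87e-08). The transferrin receptor TFRC fell by 0.71 and 0.66. The telomerase gene TERT fell by 0.46 and 0.90, and the replication helicase subunit MCM5 fell by 0.21 and 0.43.

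Of 12 genes known to be repressed by MYC, 9 were tested in 6T-CEM (4 rose, 0 fell, median 0.78) and 11 in J.gamma1 (3 rose, 4 fell, median -0.19). Over all genes 15.1% rose and 16.2% fell in 6T-CEM, and 25.0% rose and 26.5% fell in J.gamma1, and the J.gamma1 counts were near those shares. BTG2, an antiproliferative gene, had the largest rise: 15.8 and 18.0 CPM became 56.8 and 58.8 CPM in 6T-CEM, and 27.6 and 24.5 CPM became 123 and 125 CPM in J.gamma1. Its log2 changes were 1.78 ± 0.093 and 2.25 ± 0.072. The CDK inhibitor CDKN1B rose by 0.84 and 0.56, and CDKN2C by 0.78 and 0.25. CDKN1A, named after its values were seen, rose in 6T-CEM (1.43, adjusted p = 0.0336, from 0.346 and 0.556 CPM) and fell in J.gamma1 (-1.04, adjusted p = 0.00305).

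Among the machines that the network recruits, no coactivator or SIN3 gene of the lists changed by more than 1 on the log2 scale. Of 10 MYC coactivators, 2 rose and 2 fell in 6T-CEM and 4 rose and 1 fell in J.gamma1, with medians of -0.02 and 0.12. The acetyltransferase CREBBP rose by 0.44 and 0.35 and the helicase RUVBL2 fell by 0.31 and 0.18. Of 14 genes of the SIN3 corepressor that MXD proteins carry, 2 rose and 2 fell in 6T-CEM (median 0.01), and 3 rose and 8 fell in J.gamma1 (median -0.24). Beside these counts, 15.1% of all genes rose and 16.2% fell in 6T-CEM, and 25.0% rose and 26.5% fell in J.gamma1. HDAC1 rose by 0.25 and 0.46, while RBBP4 fell by 0.19 and 0.56 and SAP130 fell by 0.24 and 0.50.

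Of 15 genes that control MYC protein turnover, 14 were tested in 6T-CEM (3 rose, 4 fell) and 15 in J.gamma1 (4 rose, 5 fell). With 31.3% and 51.5% of all genes called in the 2 lines, the 9 calls in J.gamma1 were near the background. FBXW7, which marks MYC protein for destruction, was the one with the largest change. It had 50.2 and 57.7 CPM in 6T-CEM sh-NC and 115 and 114 CPM with sh-LDB1, and 52.8 and 53.1 CPM in J.gamma1 sh-NC and 114 and 115 CPM with sh-LDB1. The rises were 1.09 ± 0.075 and 1.12 ± 0.055 on the log2 scale, and the test of their difference gave 0.02 ± 0.0927 (adjusted p = 0.932). PPP2R5A, a phosphatase subunit that also lowers MYC protein, rose by 0.32 and 0.50. SKP2 fell by 0.31 and 0.47, GSK3B by 0.20 and 0.49 and TRIM32 by 0.38 and 0.29. MYC protein was not measured in these libraries.

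Targets of the parallel MondoA and ChREBP branch were read as 6 genes. In 6T-CEM, 2 rose and 1 fell of 6 tested, and in J.gamma1, 3 rose and 2 fell of 5, where 31.3% and 51.5% of all genes were called. KLF10 rose in both lines, by 1.31 and 1.52 on the log2 scale, and the glycolytic regulator PFKFB3 fell in both, by 0.38 and 1.04. TXNIP, the best known target of MondoA, went from 44.1 and 49.4 CPM to 88.9 and 94.1 CPM in 6T-CEM (0.97 ± 0.077) and stayed at 0.238 CPM or less in all J.gamma1 libraries, where it was not tested. Its relative ARRDC4 went from 15.7 and 16.4 CPM to 46.5 and 45.9 CPM in J.gamma1 (1.54 ± 0.080) and had -0.11 in 6T-CEM. ARRDC3 rose by 1.07 in J.gamma1 and had -0.31 in 6T-CEM (adjusted p = 0.173). HBP1 fell by 0.51 in J.gamma1 and had 0.07 in 6T-CEM (adjusted p = 0.650).

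Of 6 genes neighbouring MYC and MYCN, 5 were in the tables. PVT1, the long noncoding RNA next to MYC, had 113 and 83 counts in J.gamma1 sh-NC and 161 and 141 with sh-LDB1, a rise of 0.77 ± 0.231 on the log2 scale (adjusted p = 0.0166). In 6T-CEM it had 35 and 50 counts against 28 and 19 (-0.97, adjusted p = 0.0779), so PVT1 had the sign of MYC in each line. MYCNOS, the antisense gene that overlaps MYCN by 98 exon bases, dropped in J.gamma1 from 16 and 31 counts to 0 and 0, at least 7.11-fold lower when 3 counts are set as the floor of each library. Those 98 bases are 3.56% of the MYCN exon bases, and whether the counting used the strand is not given. A change of MYCNOS and MYCN reads counted as MYCNOS thus cannot be told apart. In 6T-CEM its counts were 27 and 5 in the controls against 0 and 4 after knockdown, and it was not tested there. CASC11 had at most 8 counts and POU5F1B at most 5 counts in any library, and MYCNUT was at 0 in all 8.

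As a description of likeness, the 5 genes outside the network whose log2 CPM ran closest to that of MYC over the 8 libraries were QTRT2 (Pearson r = 0.998), TRAP1 (0.998), ETF1 (0.997), METTL16 (0.997) and WDR12 (0.996), among 9628 genes with a mean of at least 10 CPM. TRAP1, a mitochondrial chaperone, had 225 and 225 CPM in 6T-CEM sh-NC, 164 and 176 in 6T-CEM sh-LDB1, 79.0 and 85.0 in J.gamma1 sh-NC and 110.1 and 114 in J.gamma1 sh-LDB1. Within the network MXD3 (-0.94) and MXD4 (-0.86) ran most opposite to MYC, followed by MAX (-0.64) and MXI1 (-0.44), with MXD1 at -0.22, MYCN at 0.08 and MNT at 0.44. The 8 points fall in 4 groups and 2 lines, so these values mostly describe the distance between the lines.

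The study designed 3 shRNAs against LDB1, and which of them the sequenced cells carried is not given in the sources used here. Their target sites are shown because a short match to the seed of the guide strand in another mRNA can also lower it. Capitals mark the 7 bases that pair with the seed.
S1: ggacagaggagtgTGACAATc
S2: gctacttccgcagCATCTTTg
S3: ggataaagacgtgGCACTTCa
Of the members, MXD1 holds 1 match to the S1 seed in its annotated 3′ UTR, and MYC and MXI1 each hold 1 match to that of S2. No match was found for MYCN, MAX, MXD3, MXD4 or MNT. Of 19617 genes with a 3′ UTR, 11.9%, 21.7% and 10.8% hold a match for S1, S2 and S3. The part of these matches in the values above was not tested.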

How the data were processed

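The authors made RNA-seq libraries from total RNA of 6T-CEM and J.gamma1 cells, mapped paired-end reads of 150 bp to the hg38 assembly (HISAT2 2.2.0), quantified genes with StringTie and deposited whole-number counts per gene, not normalized, in a table for each line. The annotation, the use of strand and the step from coverage to counts are not given in the sources used here. The 8 members and the gene lists were chosen with earlier results of these data known. The named genes of each list follow a fixed rule of size and agreement between the lines, with exceptions. MYBBP1A, WDR43, HSPE1 and CDKN1A fall outside that rule and were named after their values were seen.

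Here edgeR 4.0.16 in R 4.3.3 was used (quasi-likelihood test, robust, TMM, filterByExpr, Benjamini-Hochberg over all genes tested, threshold 0.05), on each line by itself. The interaction and the sh-NC comparison used a fit to all 8 libraries. Standard errors were derived from the F statistic. Exon lengths, positions and 3′ UTRs came from GENCODE on GRCh38, the same assembly as hg38, and promoter windows from RefSeq. Alternatives were DESeq2 1.42.0, other normalizations and filters, stricter thresholds, a replicate block and leaving out each library. The scripts were tested on simulated data. Replicates differed by more than counting noise (chi-square per degree of freedom from 7.04 to 11.7), so none was a duplicate. Counting noise covers the sampling of reads only. edgeR put the variation between libraries beyond it at 9.68% (6T-CEM) and 9.16% (J.gamma1), and that variation may be technical. Figures were drawn with matplotlib 3.10.9.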

Additional observations from a re-analysis of the deposited data

Results flagged for a closer look

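For 5 members the change with sh-LDB1 differed between J.gamma1 and 6T-CEM by edgeR's interaction test, given as the J.gamma1 change minus the 6T-CEM change on the log2 scale. MYC was at 0.97 and crossed 0, lower in both 6T-CEM knockdown libraries and higher in both J.gamma1 knockdown libraries. MYCN was at -3.20, with a fall in each line. MXD1 was at -0.82 and also crossed 0. MXI1 was at -0.38, with a rise in 6T-CEM and no call in J.gamma1. MNT was at 0.60, with a rise in each line. With 2 libraries in a group no single library could be examined as an outlier.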

How the results depend on the processing

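MYC, MYCN, MAX and MXI1 kept their direction and their side of the threshold under all 11 alternatives in each line, and MXD3 and MNT did so in J.gamma1. MXD3 and MXD4, not called in 6T-CEM, changed sign there while staying close to 0: MXD4 was at 0.0014 with RLE factors, 0.029 with upper-quartile factors, 0.0023 with a minimum of 1 CPM in 2 libraries and 0.016 with DESeq2, and MXD3 was at 0.0061 with upper-quartile factors. With single libraries left out MXD3 ranged from -0.21 to 0.19 and MXD4 from -0.066 to 0.061 in 6T-CEM. A log2 change beyond 1 in addition to the adjusted p left 1 member in 6T-CEM, 2 in J.gamma1, 1 in the interaction and 3 between the sh-NC groups, 0 and 13 of the MYC activated targets in 6T-CEM and J.gamma1, and 824, 2386, 1088 and 6003 of all genes in the 4 comparisons, since most changes of the network were smaller than that. An adjusted p under 0.01 left 3239 genes in 6T-CEM and 2744 in the interaction. The ratio of repressors to activators was 0.75 and -0.32 (6T-CEM and J.gamma1, log2) with the longest transcript as length, 0.74 and -0.31 without MNT, and 0.74 and -0.30 without length. No alternative of the ratio left out MXD3, whose counts are uncertain. Leaving out libraries gave 18 to 28 MYC activated targets and 3234 to 3875 genes called in 6T-CEM, with the fewest targets without the second sh-NC library (18) and 20 without the first sh-LDB1 library. A replicate block called 6 members in 6T-CEM and 6 in J.gamma1, MXD4 being the one gained (0.13, adjusted p = 0.0451, against 0.0216 to 0.344 over its alternatives). The labels give numbers but no pairing, and the deviations of same-numbered libraries correlated at -0.02 in 6T-CEM and -0.06 in J.gamma1. Depth limits MYCN in J.gamma1 sh-LDB1 (20 and 30 counts), MYCL in 6T-CEM and the noncoding neighbours.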
